A study of Mus musculus with 6 samples.

Results

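Semaphorins, plexins and neuropilins were examined in mouse organoids of the esophagus and the stomach. The genes were chosen by name: every gene of classes 3 to 7 of the semaphorins, the plexins and the 2 neuropilins that has a probe on the array, without regard to its level. This gave 31 of 34298 gene names, read by 45 of 55681 probes: 20 semaphorins, 9 plexins and 2 neuropilins. Each gene is described by its brightest probe, by the mean level of the 6 arrays, and 13 members had more than 1 probe.

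The study grew epithelial cells of the adult esophagus and of the stomach corpus as organoids, which are small 3-dimensional epithelial cultures in Matrigel, from wild-type female C57BL/6 mice. RNA of 6 cultures at passage 0 was hybridized to single-color Agilent arrays: 3 of squamous esophageal organoids and 3 of columnar stomach organoids, with the labels naming mice 1, 2 and 4 for both tissues. The labels also mark all 6 cultures as Control. All were harvested on day 8, except for the stomach culture of mouse 4, which was harvested on day 7. Both media held B27, N2, noggin, EGF, nicotinamide, N-acetylcysteine, FGF-10, a TGF-β receptor kinase inhibitor and a ROCK inhibitor. The stomach medium also held conditioned medium with WNT3A and R-spondin1, and gastrin, whereas the esophagus medium lacked these and held forskolin. Tissue and medium therefore changed together and cannot be told apart. These are cultures of epithelium, and the stroma, vessels and nerves that supply or receive semaphorins in the organ are not part of them by design.

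Semaphorins are secreted or membrane-bound guidance proteins, first known for repelling growing axons and now also for shaping vessels, immune cells and epithelia. They act through plexins, whose cytoplasmic part is a GTPase-activating domain for small Ras family GTPases and which also engage other small GTPases, and so they change adhesion and the actin cytoskeleton. Secreted class 3 semaphorins mostly need a neuropilin as co-receptor, whereas membrane-bound semaphorins bind plexins directly.

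Epithelial markers followed the labels of the tissues: 6 of 7 squamous genes were higher in esophageal organoids and 9 of 9 gastric genes were higher in stomach organoids. The exception was *Trp63*, a squamous lineage factor, whose brightest of 4 probes was 1.22 lower on the log2 scale in the esophagus. Its other probes are not described here, so this is the reading of 1 probe and not of the gene. By immunostaining, the study reported P63 protein in esophageal organoids. A probe is called well above background here where the scanner software marked it so. No fibroblast marker was well above background on each of the 3 arrays of either tissue, and the immune marker *Ptprc*, the endothelial markers *Cdh5*, *Emcn* and *Cldn5* and the glial marker *Sox10* were not well above background on any array. Other markers of such lists were well above it on all 6 arrays. Among them were the immune genes *Cd68* (11.04 to 14.77 on the log2 scale), *Csf1r* (7.78 to 8.35) and *Cd3e* (7.23 to 8.34). The smooth muscle gene *Tagln* (8.55 to 10.76) was another, and none of these genes was called between tissues. The array of esophagus mouse 4 was on a slide of its own, and the other 5 shared a slide. A level below is a log2 normalized intensity, a difference is esophagus minus stomach on that scale, and a call is a limma adjusted p under 0.05 over all 55681 probes. In bulk samples, fewer cells of a kind and less RNA per cell cannot be told apart. The smallest p that an exact permutation test can give for 3 arrays against 3 is 0.1.

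Of the 31 genes, 7 were higher in organoids of the esophagus, 7 in those of the stomach, and 17 were not called. This is 45.2% of the members, where 14.9% of all 34298 gene names were called. The 2 shares are not matched for signal. Of the members, 21 were well above background on each array of at least 1 tissue, and none of the 8 at background on all arrays was called. Of all 55681 probes, 38.4% were well above background on all 6 arrays. Among all gene names 7.15% were called toward the esophagus and 7.7% toward the stomach, and the members stood at 22.6% in each direction. The arrays of the tissues did not overlap for 19 members (61.3%), against 31.6% of all gene names. The median difference of the members was 0.00 and that of all gene names 0.03. *Sema5a*, *Sema4b*, *Plxnb1*, *Sema6d*, *Sema3f*, *Plxna2* and *Sema4d* were higher in the esophagus. *Sema3b*, *Sema4g*, *Sema3c*, *Sema6b*, *Plxnd1*, *Sema4a* and *Plxnb2* were higher in the stomach.

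**Figure D1:**
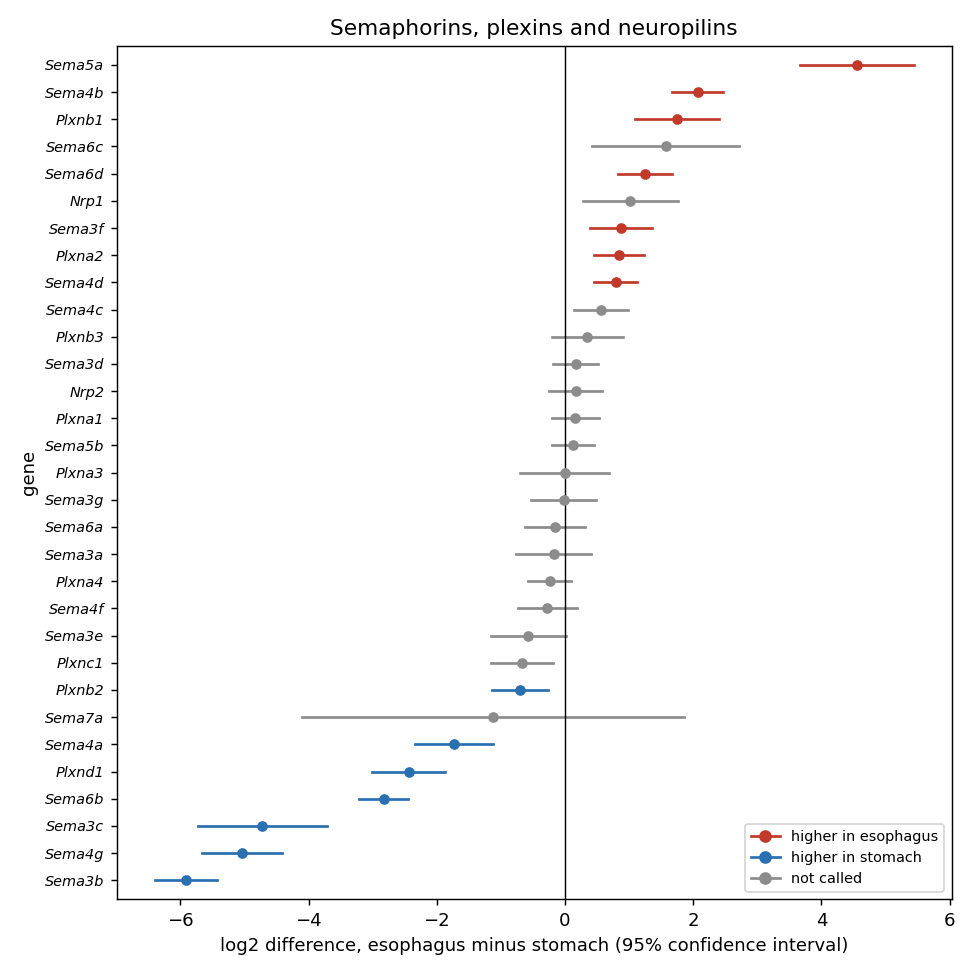
Difference in log2 normalized intensity (esophagus minus stomach, horizontal axis) for the 31 genes (vertical axis), with the 95% confidence interval of the limma fit over 3 arrays of each tissue. Colored points are called at limma adjusted p under 0.05 and gray points are not. The differences ran from -5.92 (Sema3b) to 4.55 (Sema5a), and the interval of Sema7a was the widest.

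Among the secreted class 3 semaphorins, 2 of 7 were higher in the stomach, 1 was higher in the esophagus and 4 were not called. The stretches below are the first 30 bases of the 60-base probes that read the 2 stomach genes, shown because these probes carry the 2 largest of the secreted ligands' differences and because the 2 probes of *Sema3c* differ in size of response.
*Sema3b*: tgggtatggggtgaggcaggccaactgtac
*Sema3c*, probe 1: ccctgtgtagagaaagcaaactagatgtag
*Sema3c*, probe 2: acgtaaagtcaagagtgactcataaagagc
The array annotation places them in mm9 at chr9:107500686-107500745 (minus strand), chr5:17235981-17236040 (plus strand) and chr5:17234078-17234137 (plus strand).

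*Sema3b*, a secreted ligand of neuropilins that lies in a tumor suppressor region of the human genome, had the largest difference of the family. Its level was 5.92, 6.02 and 6.52 in the esophagus of mice 1, 2 and 4 and 12.31, 12 and 11.90 in the stomach. The stomach arrays all lay far above the esophagus arrays, which were still well above background on 3 of 3 arrays. The mean was 6.15 ± 0.32 (SD, n = 3) in the esophagus and 12.07 ± 0.22 (SD, n = 3) in the stomach, 60.4-fold higher in the stomach (difference -5.92, SE 0.21, limma adjusted p = 1.42e-06). All 3 mouse numbers showed this direction, with differences of -6.40, -5.98 and -5.38. The size varied with the starting values. The difference was -5.28 with mean signals and a background correction offset of 50. It was -6.56 with the processed signal scaled to the 75th percentile. Each setting changed more than the background step, and the part of each step was not tested.

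*Sema3c*, a secreted ligand that acts through neuropilins with plexin D1 or A plexins, was 7.35, 5.75 and 5.81 in the esophagus and 11.06, 10.61 and 11.40 in the stomach by its brighter probe. The tissues did not overlap, and the esophagus of mouse 1 was the highest of its tissue. The level was 26.4-fold higher in the stomach (difference -4.72, SE 0.43, limma adjusted p = 0.000279). Its second probe gave 5.17, 4.97 and 5.17 in the esophagus, on no array well above background, and 7.22, 6.61 and 7.70 in the stomach. This probe showed the same direction, with a level at least 4.05-fold higher in the stomach (difference -2.07, limma adjusted p = 0.00175). The mean of both probes gave a difference of -3.40, and the brighter probe gave -4.13 with the offset of 50 and -5.35 with the processed signal. A lower bound of this kind holds on the scale of the deposited values and sets the mean of the bright tissue against the higher of the dim probe's own level and the lowest level that was well above background on each array.

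*Sema3f*, a secreted repellent that signals through neuropilin 2, moved the other way by a smaller amount. It stood at 13.08, 13.11 and 12.61 in the esophagus and at 12.13, 12.28 and 11.77 in the stomach. The lowest esophagus array lay above the highest stomach array, and the difference was 0.87 (SE 0.21, 1.83-fold, limma adjusted p = 0.0312). This call was not stable: the adjusted p was 0.0798 without esophagus mouse 1, 0.105 without esophagus mouse 2, and 0.0996, 0.0568 and 0.0693 without stomach mouse 1, 2 or 4, with the differences between 0.73 and 0.98. Of the other class 3 genes, *Sema3e*, a direct ligand of plexin D1, was well above background on 2 stomach arrays and on none of the esophagus, with overlapping levels of 4.85 to 5.53 and 5.30 to 6.07 (difference -0.57, limma adjusted p = 0.227). *Sema3a*, *Sema3d* and *Sema3g* were not well above background on any array.

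**Figure D2:**
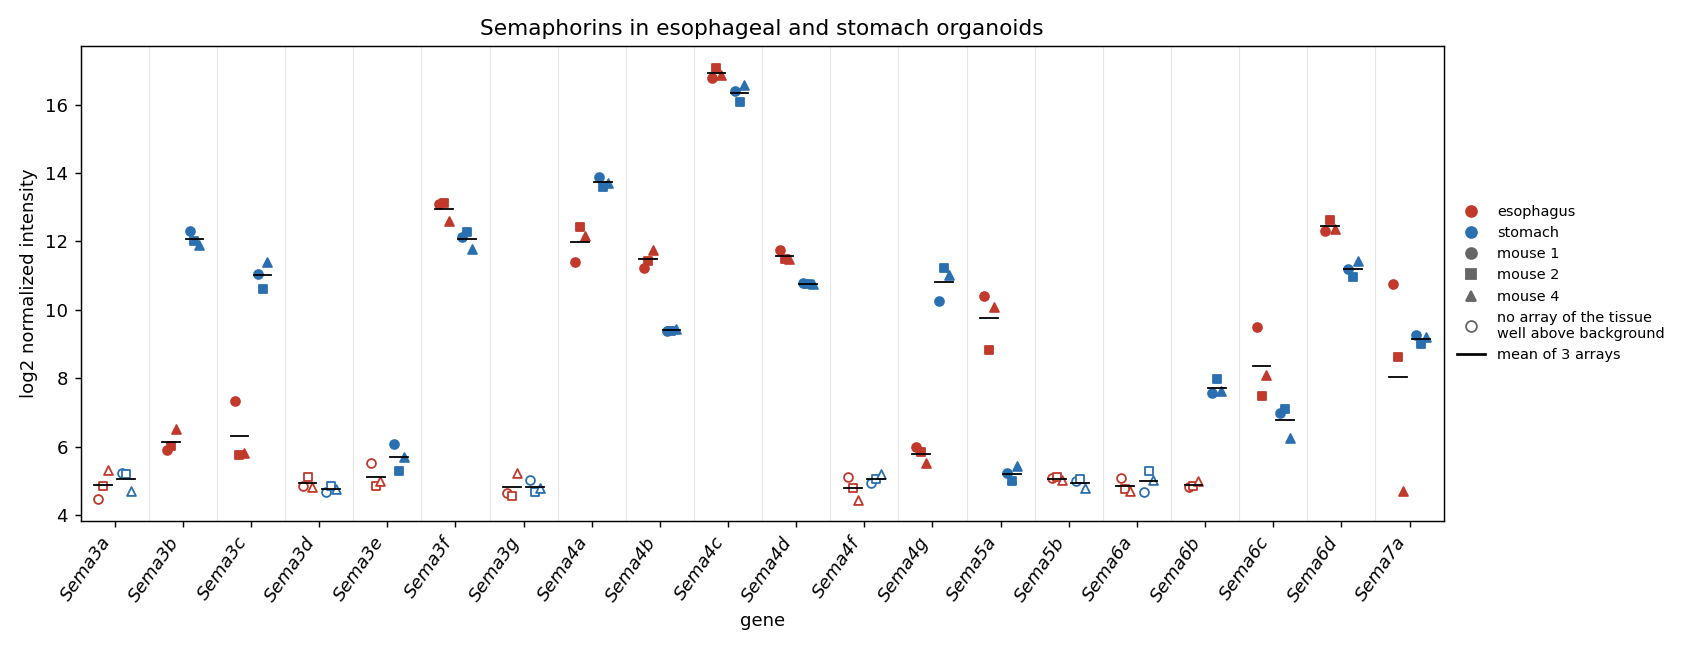
Log2 normalized intensity (vertical axis) of the 20 semaphorin genes (horizontal axis, brightest probe of each) on each of 6 arrays. Color gives the tissue, the shape of the point the mouse, open points a tissue in which no array was well above background, and black lines the mean of 3 arrays. Heights are to be compared within a gene and not between genes. Sema3b, Sema3c, Sema4g and Sema6b stand higher in the stomach and Sema5a and Sema4b in the esophagus, whereas the 3 esophagus arrays of Sema7a run from 4.71 to 10.76.

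The transmembrane class 4 semaphorins, which bind B-type plexins and several immune receptors, moved in both directions: 2 of 6 were higher in the esophagus, 2 in the stomach and 2 were not called. The next stretches are the first 30 bases of the probes with the larger class 4 changes.
*Sema4b*: cggagaccagaggctctcctttgctttgtg
*Sema4g*: ctcttgggtgaggatgactgttatttttgt
They lie in mm9 at chr7:87371351-87371410 and chr19:45077642-45077701, both on the plus strand.

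*Sema4g*, a transmembrane ligand of plexin B2, was 5.99, 5.84 and 5.53 in the esophagus and 10.25, 11.21 and 11.01 in the stomach. All esophagus arrays were well above background, yet the highest of them lay far under the lowest stomach array. The level was 32.8-fold higher in the stomach (difference -5.04, SE 0.27, limma adjusted p = 1.31e-05), and the difference was -4.31 with the offset of 50 and -6.01 with the processed signal. *Sema4a*, known from the immune system and the retina, was 11.41, 12.41 and 12.15 in the esophagus and 13.89, 13.58 and 13.71 in the stomach. Its arrays did not overlap, and the level was 3.33-fold higher in the stomach (difference -1.73, SE 0.26, limma adjusted p = 0.00395).

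*Sema4b*, whose cytoplasmic end binds a postsynaptic scaffold protein, was 11.23, 11.43 and 11.76 in the esophagus and 9.39, 9.37 and 9.45 in the stomach. The stomach arrays were nearly equal and all lay below the esophagus arrays (difference 2.07, SE 0.17, 4.20-fold, limma adjusted p = 0.000159). *Sema4d*, the ligand of plexin B1, gave 11.75, 11.48 and 11.48 in the esophagus and 10.78, 10.76 and 10.77 in the stomach. Its difference of 0.80 (SE 0.15, 1.74-fold, limma adjusted p = 0.00998) was small, and the groups did not overlap. A second *Sema4d* probe, at 6.94, 6.14 and 5.47 against 5.55, 5.62 and 5.93, overlapped between tissues (difference 0.48, limma adjusted p = 0.474), and the mean of both probes was not called either (difference 0.64, limma adjusted p = 0.119). On no array was *Sema4f* well above background.

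*Sema4c*, also a ligand of plexin B2, needs its probe sequence beside its values, and so does the class 6 gene *Sema6d*. The brightest probes of both hold a run of the dinucleotide GT, printed here in capitals within 30 bases of each probe, next to the first 30 bases of the second *Sema6d* probe, which has no such run.
*Sema4c*: aatGTGTGTGTGTGTGTGTGTGTGTtgtaa
*Sema6d*, probe 1: agaggggcgaGTGTGTGTGTGTGTGTGTGT
*Sema6d*, probe 2: taaagaggacaccatccttaaaacctgatg
In mm9 they lie at chr1:36605998-36606057 (minus strand), chr2:124491609-124491668 and chr2:124490948-124491007 (both plus strand). The runs hold 11 repeats in *Sema4c* and 10 in *Sema6d*, and no other of the 45 member probes had 8 or more.

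On the whole array 75 probes held at least 8 GT repeats. All 75 were well above background on all 6 arrays, against 38.4% of all 55681 probes, and their median level was 15.38 against 5.32. All 75 were also higher in esophageal than in stomach organoids, by 0.21 to 1.41 with a median of 0.78, whereas the median over all probes was 0.02. Both member probes are among these 75. *Sema4c* stood at 16.77, 17.08 and 16.87 in the esophagus and at 16.39, 16.07 and 16.58 in the stomach, without overlap and not called (difference 0.56, limma adjusted p = 0.0963). *Sema6d* stood at 12.31, 12.64 and 12.36 in the esophagus and at 11.19, 10.95 and 11.43 in the stomach (difference 1.25, SE 0.18, 2.37-fold, limma adjusted p = 0.00325), and 5 of the 75 probes had a larger difference. The second *Sema6d* probe stayed under the well-above-background limit throughout and gave a difference of -0.12 (limma adjusted p = 0.756), and the mean of both probes gave 0.56 (limma adjusted p = 0.042). The part of the repeat in the levels and differences of *Sema4c* and *Sema6d* was not tested. Without the genes read by such a probe, 6 members were called toward the esophagus and 7 toward the stomach.

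Class 5 semaphorins carry thrombospondin repeats and can attract or repel axons. *Sema5a* is a ligand of plexin B3. Its levels were 10.41, 8.82 and 10.08 in the esophagus and 5.24, 4.99 and 5.43 in the stomach, where 1 of 3 arrays was well above background. Each esophagus array lay far above each stomach array, the mean being 9.77 ± 0.84 (SD, n = 3) against 5.22 ± 0.22 (SD, n = 3). The level was 23.4-fold higher in the esophagus (difference 4.55, SE 0.38, limma adjusted p = 0.000175), with differences of 5.17, 3.83 and 4.66 for the 3 mouse numbers. With the offset of 50 the difference was 3.60, and with the processed signal it was 6.15. None of the 3 probes of *Sema5b* was well above background, on whichever array. The first 30 bases of the *Sema5a* probe, at chr15:32626025-32626084 of mm9 on the plus strand, are given here because this probe has the largest difference toward the esophagus of the 31 genes.
*Sema5a*: gttttgtgtaaatagtttgccttgttcagt

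Class 6 semaphorins are transmembrane ligands of A-type plexins. *Sema6b* was 4.84, 4.85 and 5.0 in the esophagus, on no array well above background, and 7.57, 7.98 and 7.62 in the stomach, on every array well above it. It stood at least 6.41-fold higher in the stomach (difference -2.83, limma adjusted p = 2.19e-05), by a probe at chr17:56262769-56262828 of mm9 on the minus strand. The difference was -1.87 with the offset of 50, where the fold is under that bound, and -4.94 with the processed signal. *Sema6c* stood at 9.51, 7.48 and 8.09 in the esophagus and at 6.99, 7.12 and 6.26 in the stomach. Its arrays did not overlap, but those of the esophagus were spread widely, and the gene was not called (difference 1.57, SE 0.49, limma adjusted p = 0.0883). Without esophagus mouse 2 the adjusted p was 0.0418 at a difference of 2.01, and the second *Sema6c* probe gave 0.25 (limma adjusted p = 0.475). On no array was *Sema6a* well above background.

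*Sema7a*, the GPI-anchored semaphorin that binds plexin C1 and integrin β1, varied more between esophagus cultures than between tissues. It stood at 10.76, 8.63 and 4.71 in the esophagus of mice 1, 2 and 4, the last not well above background, and at 9.27, 9.0 and 9.22 in the stomach. The stomach arrays fell between the esophagus arrays, and the difference was -1.13 with an interval of -4.11 to 1.86 (limma adjusted p = 0.685). Without the esophagus array of mouse 4, the one on its own slide, the difference was 0.53 (limma adjusted p = 0.65), and without that of mouse 1 it was -2.49 (limma adjusted p = 0.177). For the array of mouse 4 the slide and the culture cannot be told apart.

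**Figure D3:**
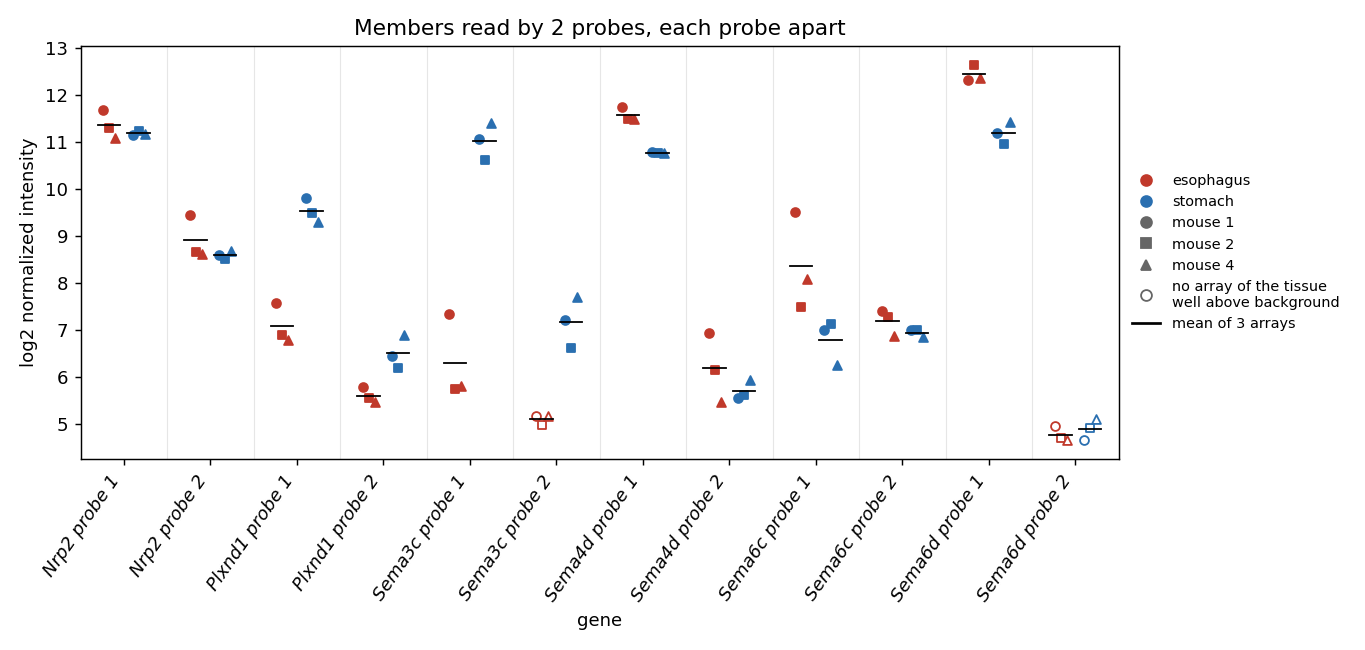
Log2 normalized intensity (vertical axis) of 6 genes that 2 probes read and that were well above background in a tissue, each probe apart (horizontal axis, probe 1 the brighter). Color gives the tissue, shape the mouse, open points a tissue in which no array was well above background, and black lines the mean of 3 arrays. Both probes of Sema3c and Plxnd1 stand higher in the stomach, whereas only probe 1 of Sema6d, which holds the GT run, is above background.

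Of the 9 plexins, 2 were higher in the esophagus, 2 in the stomach and 5 were not called. *Plxnb1*, the receptor of *Sema4d*, was 9.42, 9.88 and 10.20 in the esophagus and 8.21, 8.46 and 7.59 in the stomach. The groups did not overlap, and the level was 3.36-fold higher in the esophagus (difference 1.75, SE 0.28, limma adjusted p = 0.0054). *Plxna2*, a receptor of class 3 and class 6 semaphorins, was 10.65, 10.75 and 10.85 in the esophagus and 10.13, 9.66 and 9.91 in the stomach. Its arrays did not overlap, with a difference of 0.85 (SE 0.17, 1.80-fold, limma adjusted p = 0.0148). It was not called without esophagus mouse 2 (limma adjusted p = 0.0505) or without stomach mouse 2 (limma adjusted p = 0.0611).

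*Plxnd1*, the receptor of *Sema3e* and, with neuropilins, of *Sema3c*, is best known from blood vessels. It was 7.58, 6.90 and 6.79 in the esophagus and 9.81, 9.48 and 9.30 in the stomach, well above background on all 6 arrays. The tissues did not overlap, and the level was 5.42-fold higher in the stomach (difference -2.44, SE 0.24, limma adjusted p = 0.000459). The second probe, at 5.78, 5.56 and 5.46 against 6.45, 6.19 and 6.89, was also higher in the stomach (difference -0.91, limma adjusted p = 0.0271), and the mean of both gave -1.67. Of 8 endothelial markers, 2 were higher in the stomach (*Egfl7* and *Esam*), and the mean level over the list lay between 5.79 and 5.84 in the esophagus and between 6.11 and 6.55 in the stomach. *Pecam1*, *Egfl7* and *Esam* were well above background on all 6 arrays, *Cdh5*, *Emcn* and *Cldn5* on none, and the part of these genes in the *Plxnd1* difference was not tested.

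*Plxnb2*, the receptor of *Sema4c* and *Sema4g*, was 14.97, 14.93 and 14.79 in the esophagus and 15.35, 15.51 and 15.94 in the stomach. The groups did not overlap, but the call was marginal (difference -0.70, SE 0.19, 1.63-fold, limma adjusted p = 0.0486). It was lost with any of the 6 arrays left out, where the limma adjusted p was 0.0641 to 0.12 and the difference -0.83 to -0.53, and with the mouse as a block (limma adjusted p = 0.0954). Leaving out the esophagus arrays of mice 1, 2 and 4 gave 0.0803, 0.115 and 0.116, and leaving out the stomach arrays of mice 1, 2 and 4 gave 0.0641, 0.12 and 0.0837.

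The other plexins did not pass. *Plxna1*, a receptor of class 3 and class 6 semaphorins, was 6.96, 7.28 and 6.95 in the esophagus and 6.88, 7.03 and 6.81 in the stomach, and the groups overlapped (difference 0.16, interval -0.21 to 0.53). *Plxna3*, which works with neuropilin 2 as a receptor of *Sema3f*, had a difference of 0.00 with an interval of -0.70 to 0.69. *Plxnc1*, the receptor of *Sema7a*, was well above background on 2 stomach arrays and on none of the esophagus (difference -0.67, limma adjusted p = 0.0882). *Plxna4* and *Plxnb3* were not well above background on any array.

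The co-receptors did not pass either. *Nrp1*, which also binds VEGF-A, was 6.75, 5.45 and 5.71 in the esophagus, on every array well above background, and 4.85, 4.92 and 5.07 in the stomach, on none. The groups did not overlap, and the level stood at least 2.01-fold higher in the esophagus, but the difference was not called (1.02, SE 0.32, limma adjusted p = 0.0863). It was called with the processed signal scaled to the 75th percentile (difference 3.41, limma adjusted p = 0.00367) and with a trended robust variance (limma adjusted p = 0.0493). With the offset of 50 the difference was 0.65 (limma adjusted p = 0.169) and without esophagus mouse 1 it was 0.63 (limma adjusted p = 0.0672), both under that bound as a fold. *Nrp2* was 11.67, 11.29 and 11.09 in the esophagus and 11.15, 11.23 and 11.17 in the stomach. The groups overlapped, and the difference of 0.17 had an interval of -0.25 to 0.58. A second *Nrp2* probe gave 0.31 (limma adjusted p = 0.501).

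**Figure D4:**
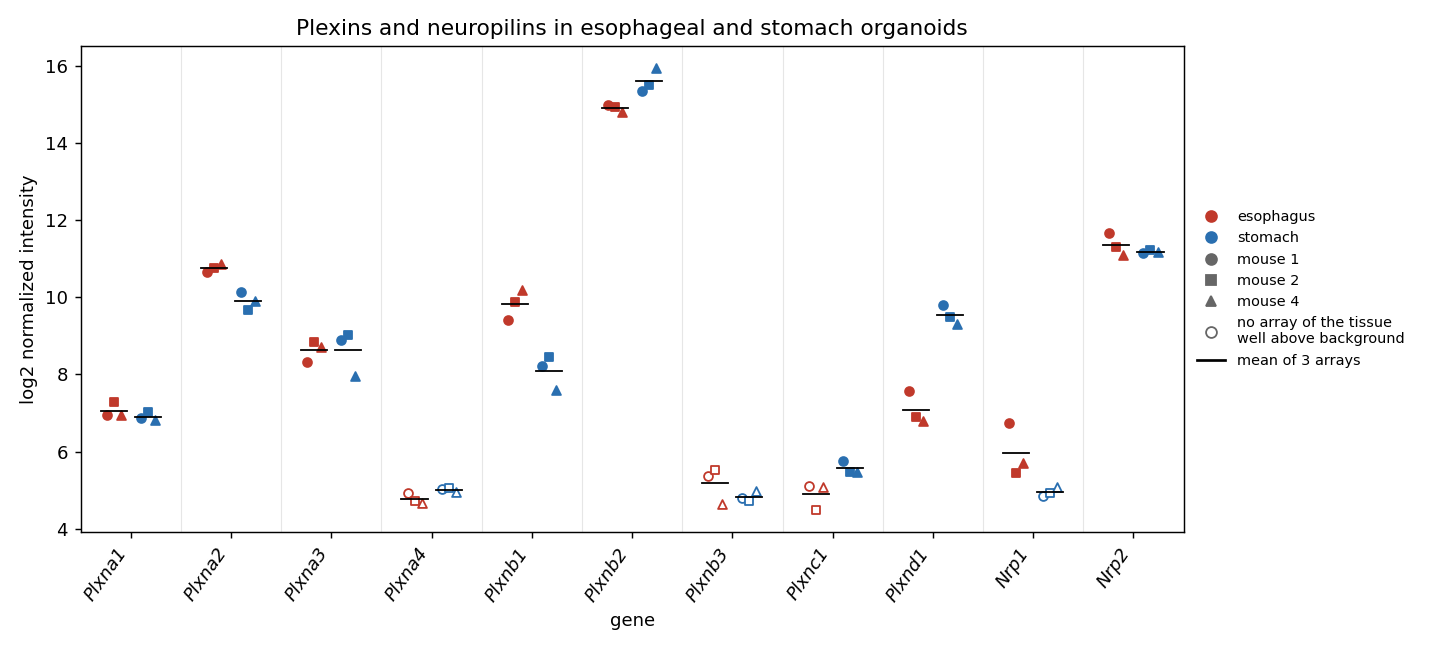
Log2 normalized intensity (vertical axis) of the 9 plexins and 2 neuropilins (horizontal axis, brightest probe of each) on each of 6 arrays. Color gives the tissue, shape the mouse, open points a tissue in which no array was well above background, and black lines the mean of 3 arrays. Plxnb1 and Plxna2 stand higher in the esophagus and Plxnd1 and Plxnb2 in the stomach, whereas Nrp2 overlaps between the tissues. Heights are to be compared within a gene.

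Set beside each other as known ligand and receptor, *Sema4d* and *Plxnb1* differed by 0.80 and 1.75 and were both higher in the esophagus. *Sema4g* and *Plxnb2* differed by -5.04 and -0.70, both toward the stomach, where the *Plxnb2* call was lost with any array left out. *Sema4c*, the other *Plxnb2* ligand, differed by 0.56 and was not called. *Sema3c* and *Plxnd1* differed by -4.72 and -2.44 and were both higher in the stomach. For *Sema3f*, the receptor subunits *Nrp2* and *Plxna3* differed by 0.17 and 0.00 and were not called. For *Sema5a*, the receptor *Plxnb3* was not well above background in either tissue. The class 6 ligand *Sema6b* and *Plxna2*, a receptor of that class, differed in opposite directions, by -2.83 and 0.85. These pairs were chosen with the values known, and no test was made of them.

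The 8 members that were not well above background on any array were *Plxna4*, *Plxnb3*, *Sema3a*, *Sema3d*, *Sema3g*, *Sema4f*, *Sema5b* and *Sema6a*, with levels of 4.46 to 5.52, and none was called. At this signal a difference was not detectable. Of the 31 genes, 21 were well above background on each array of at least 1 tissue and 17 on each of the 6 arrays.

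RefSeq promoters of mouse assembly GRCm38.p6 were matched for 26 of the 31 genes, with 37 transcript starts. In the 250 bases before the start, these held 0 to 39 CpG dinucleotides with a median of 13, and the median of all 32851 promoters in the table was 6. Those of the matched members with the largest difference toward each tissue are shown, with CpG in capitals. *Sema5a* has 17 CpG at chr15:32244563-32244812 and *Sema4g* has 24 at chr19:44989094-44989343, both on the plus strand.
*Sema5a*: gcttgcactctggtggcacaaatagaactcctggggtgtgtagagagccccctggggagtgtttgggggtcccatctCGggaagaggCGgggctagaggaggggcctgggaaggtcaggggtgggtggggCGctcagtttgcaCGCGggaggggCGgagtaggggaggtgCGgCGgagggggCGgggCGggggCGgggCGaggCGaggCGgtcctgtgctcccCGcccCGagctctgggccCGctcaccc
*Sema4g*: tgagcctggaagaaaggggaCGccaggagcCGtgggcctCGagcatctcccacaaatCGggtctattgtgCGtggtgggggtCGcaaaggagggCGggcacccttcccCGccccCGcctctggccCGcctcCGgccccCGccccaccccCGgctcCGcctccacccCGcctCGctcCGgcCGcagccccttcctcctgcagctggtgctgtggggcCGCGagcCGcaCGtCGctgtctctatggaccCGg
Both stretches hold more CpG than the median promoter, although the genes differ in opposite directions between the tissues.

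Of 62 partner genes of the pathway, listed by role, 14 were called toward the esophagus, 11 toward the stomach, and 37 were not called. These are 22.6% and 17.7%, beside 7.15% and 7.7% of all gene names, and the median difference was 0.06. These shares are not matched for signal either, with 54 of the 62 well above background on each array of at least 1 tissue. The esophageal count includes *Dpysl5*, a collapsin response mediator, with a difference of 1.0 (limma adjusted p = 0.033) by a probe that holds 5 GT repeats. Its call was lost without esophagus mouse 2 (limma adjusted p = 0.0972), esophagus mouse 4 (0.0536), stomach mouse 1 (0.101) or stomach mouse 2 (0.114), with the mouse as a block (0.0791), with the offset of 50 (0.0618) and as the mean of its probes (difference 0.38, limma adjusted p = 0.25). Over the 114 probes with 5 to 7 GT repeats the median difference was 0.70, and 93 were higher in the esophagus. Without genes read by a probe with 5 or more, 13 partners were called toward the esophagus and 11 toward the stomach. By role, the called genes were 5 of 14 co-receptors and other receptors, 2 of 5 VEGF ligands, 3 of 12 GTPases, 5 of 6 exchange factors and GTPase-activating proteins, 6 of 19 cytoplasmic effectors and 4 of 6 proteases. The counts fell with single arrays left out, to 7 in the esophagus (without stomach mouse 2) and 7 in the stomach (without stomach mouse 1). The esophageal count was 9 without esophagus mouse 2 and 8 without stomach mouse 1.

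Among receptors that work with semaphorins, *Chl1*, a cell adhesion molecule of the L1 family that joins neuropilin complexes, had the largest difference. It was 11.23, 11.19 and 10.60 in the esophagus and 4.49, 4.85 and 4.87 in the stomach, where no array was well above background. It stood at least 75.5-fold higher in the esophagus (difference 6.27, limma adjusted p = 1.31e-06). The difference was 5.07 with the offset of 50 and 5.23 as the mean of its 2 probes, both under that bound as a fold, and 9.48 with the processed signal. Of 8 markers of neurons and glia, 2 (*Tubb3* and *Elavl4*) were also higher in the esophagus, and the mean level over that list lay between 7.14 and 7.56 in the esophagus and between 6.62 and 6.69 in the stomach. The *Elavl4* probe, at a difference of 0.92, holds 5 GT repeats, as the *Dpysl5* probe does. *Sox10*, *Uchl1* and *Prph* were not well above background on any array. *Itga1*, an integrin subunit that binds collagen, was 6.77, 5.47 and 5.60 against 8.42, 8.61 and 7.48 and higher in the stomach (difference -2.22, limma adjusted p = 0.0108), a call lost without stomach mouse 1 (limma adjusted p = 0.0583) or stomach mouse 2 (limma adjusted p = 0.056). With the processed signal the difference of *Itga1* was -3.15.

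The receptor tyrosine kinases that associate with B-type plexins are *Met*, the receptor of hepatocyte growth factor, its relative *Mst1r* and *Erbb2*. *Erbb2* was 10.54, 10.75 and 10.26 in the esophagus and 11.76, 11.88 and 11.50 in the stomach, 2.29-fold higher in the stomach without overlap (difference -1.20, SE 0.18, limma adjusted p = 0.00439). With the processed signal scaled to the 75th percentile it was not called (difference -0.99, limma adjusted p = 0.0706). *Met* was 5.80, 5.77 and 5.77 against 6.25, 6.39 and 6.29, with a call that was lost with any array left out (difference -0.53, limma adjusted p = 0.0401, and 0.0688 to 0.145 without an array). *Mst1r*, at 12.26, 12.38 and 12.01 against 12.77, 12.93 and 12.69, did not overlap and was not called (difference -0.58, limma adjusted p = 0.0568).

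Among the intracellular partners, *Tiam1*, an exchange factor that activates Rac, was 10.29, 10.78 and 10.35 in the esophagus and 6.64, 6.55 and 7.86 in the stomach (difference 3.46, limma adjusted p = 0.000489). *Dpysl4*, a member of the family of collapsin response mediators, was 9.03, 7.61 and 6.85 in the esophagus and on no stomach array well above background, at least 8.15-fold higher in the esophagus (difference 3.11, limma adjusted p = 0.00452, and 2.51 without esophagus mouse 1). Its difference was 2.13 with the offset of 50 and 5.93 with the processed signal. The values of 2.51 and 2.13 are both under that bound as a fold. Each esophagus array of both genes lay above each stomach array. Higher in the stomach were the Ras family GTPase *Mras* (6.16, 6.01 and 6.26 against 9.15, 9.28 and 9.44, limma adjusted p = 8.29e-06), the plexin-binding exchange factor *Farp1* (9.28, 8.28 and 8.86 against 10.65, 10.72 and 11.14, limma adjusted p = 0.00207) and the Rac effector kinase *Pak1* (7.56, 7.87 and 7.70 against 9.71, 10.00 and 9.5, limma adjusted p = 0.000223). Their differences were -3.14, -2.03 and -2.02, and none of the 3 overlapped between tissues. For *Mras* the mean of its probes gave -1.43 and the processed signal -3.80.

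Of the 6 proteases that cut semaphorins, 2 were called toward each tissue. *Furin*, the proprotein convertase that processes class 3 semaphorins, was 12.37, 12.63 and 12.23 against 12.22, 12.23 and 12.28 and overlapped (difference 0.17, interval -0.20 to 0.53, limma adjusted p = 0.609). Its relative *Pcsk5* was 7.63, 8.09 and 7.99 in the esophagus and on no stomach array well above background, at least 7.29-fold higher in the esophagus (limma adjusted p = 0.000148). Its difference of 3.02 was 2.07 with the offset of 50 and 1.61 as the mean of its probes, both under that bound as a fold, and 5.38 with the processed signal. The metalloprotease *Mmp14*, which can shed *Sema4d*, was 9.35, 8.97 and 8.95 against 6.37, 6.70 and 6.75 and higher in the esophagus (difference 2.48, limma adjusted p = 7.89e-05). *Pcsk6* was 10.28, 9.71 and 6.78 in the esophagus and 13.14, 12.87 and 13.57 in the stomach, with the esophagus of mouse 4 far below the other two. It was higher in the stomach (difference -4.27, SE 0.81, limma adjusted p = 0.0118), and the limma adjusted p was 0.0594 with a trended robust variance, 0.0542 without stomach mouse 1 and 0.000331 at a difference of -3.20 without the esophagus array of mouse 4, and the difference was -4.95 without that of mouse 1.

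**Figure D5:**
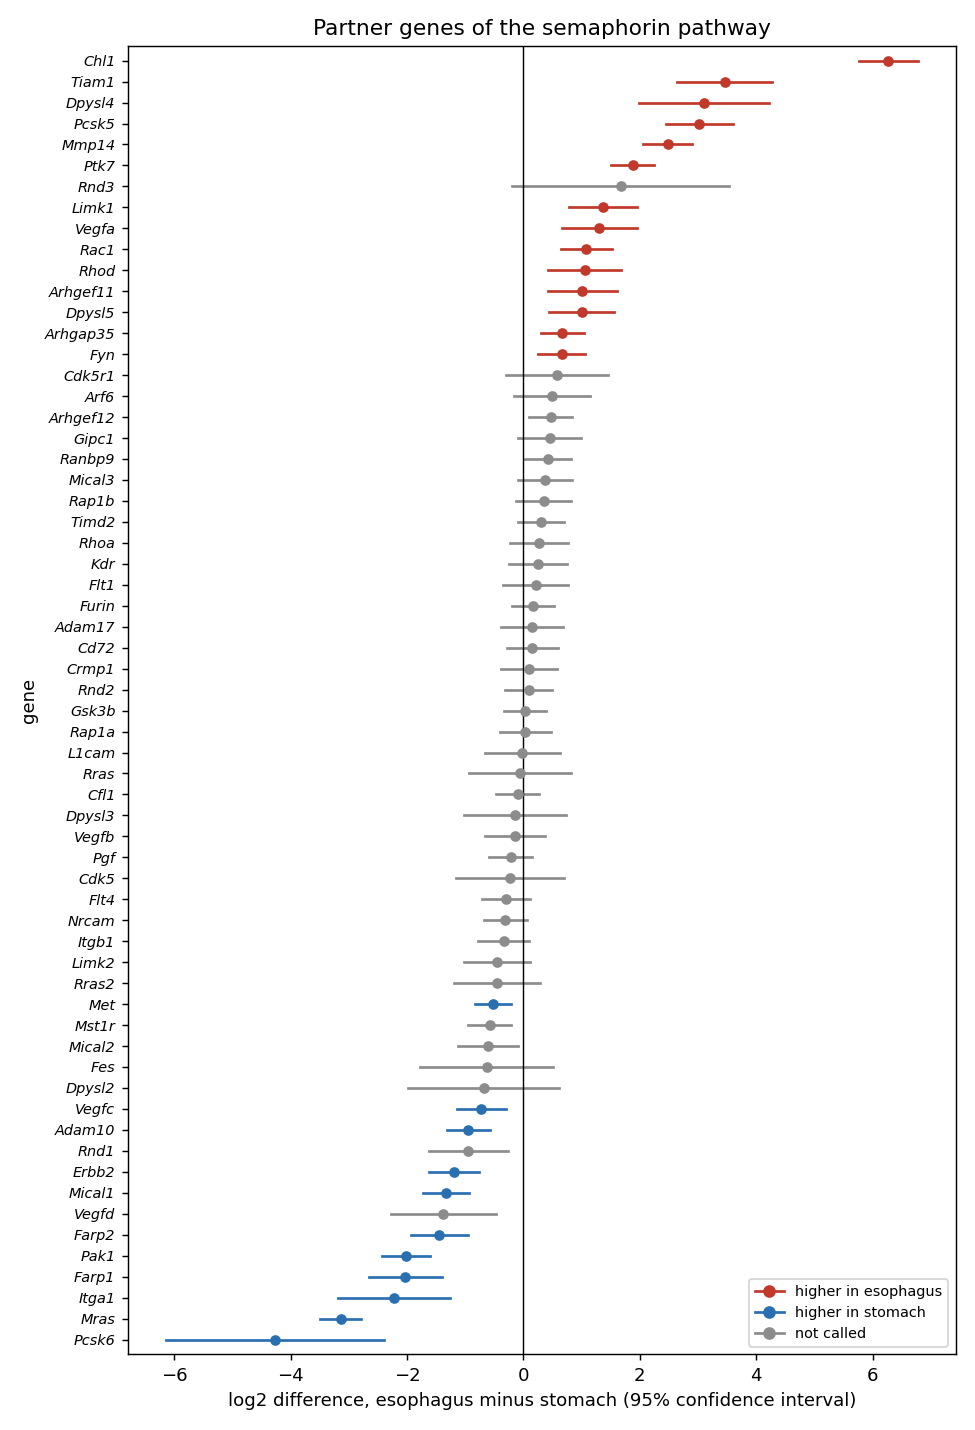
Difference in log2 normalized intensity (esophagus minus stomach, horizontal axis) of the 62 partner genes (vertical axis), with the 95% confidence interval of the limma fit over 3 arrays of each tissue. Colored points are called at limma adjusted p under 0.05, 14 toward the esophagus and 11 toward the stomach, and gray points are not. Chl1 is at 6.27 and Pcsk6 at -4.27, the ends of the range.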

How the data were processed

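RNA of 6 organoid cultures was hybridized to Agilent-028005 arrays, which the authors read with Agilent Feature Extraction (version 11.5.1.1, per the file headers). The authors corrected the background, normalized by quantiles and deposited the result as log2 values. Median signals under normexp (offset 15) and quantile normalization rebuilt this table with a median absolute difference of 0.00433. Each deposited scanner file gives the spot intensity and the other flags used here (well above background, saturated, outlier), and 45.5% to 51.1% of the non-control spots were well above background on an array. The 2029 outlier-marked spots were empty in the table, and no spot was saturated. Positions are those of the array annotation (mm9), and whether a probe lies in a coding exon or elsewhere in the transcript was not analysed here. Promoters came from RefSeq (GRCm38.p6) and were not set against mm9 positions.

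In R 4.3.3, spots of a probe were averaged and limma 3.58.1 (lmFit, eBayes, no block) compared the tissues with Benjamini-Hochberg adjustment over all probes, tested first on simulated data. Members were named in full where at least 1 tissue was well above background on all 3 arrays, and of the partners the 5 largest called differences in each direction plus *Met*, *Mst1r*, *Erbb2* and *Furin*. Members and lists were chosen with earlier results of these data known. Of 64 listed partner names, 62 were on the array, and the other 2 are alternate symbols of listed genes. The pairing of arrays by mouse rests on the labels, which give both tissues the same mouse numbers, and the sources used here do not otherwise state that 1 animal gave both. Set against the mean of its tissue, the esophagus and the stomach array correlated across probes at 0.025, 0.0119 and -0.00787 for mice 1, 2 and 4. For arrays of unlike number the correlation was -0.0726 to 0.0405. These correlations do not show a pairing and cannot exclude one, since they run over all probes, many of them at background. Alternatives were other starting values: mean signals with offset 16 or 50, or the processed signal scaled to the 75th percentile without quantile normalization. Further alternatives were the mouse or slide as a block, a filter on dim probes, the mean of a gene's probes and trended robust variances. The methods' threshold was also used, and each array was left out in turn. Leaving out genes read by probes with at least 8 or at least 5 GT repeats was chosen after seeing the data. The values of 1 marker of neurons and glia are not reported here.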

Additional observations from a re-analysis of the deposited data

How the results depend on the processing

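With 3 arrays a tissue, their number limits the precision, and for the 8 members at background no difference could be seen. Over the alternatives, 5 to 9 members were called toward the esophagus and 6 to 8 toward the stomach, with 5 to 7 and 6 to 6 when an array was left out. For the partner genes, leaving out an array gave 7 to 13 in the esophagus and 7 to 10 in the stomach. By the methods' threshold (p under 0.05 without adjustment and 1.5-fold), 9 and 8 members were called. With the mouse as a replicate block, 7 members were called toward the esophagus and 6 toward the stomach, and among the members the block changed the call of *Plxnb2* only. For the partner genes the block gave 11 toward the esophagus and 9 toward the stomach, with *Arhgap35*, *Dpysl5*, *Fyn*, *Met* and *Vegfc* no longer called. Of the members' single-gene values under alternatives, 369 stayed on their side of the threshold, 20 were no longer called and 4 became called, and no called value changed sign.

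*Sema3b*, *Sema3c*, *Sema4a*, *Sema4b*, *Sema4g*, *Sema5a*, *Sema6b*, *Sema6d*, *Plxnb1* and *Plxnd1* were called in all 13 distinct alternatives. The slide as a block is not counted among them, since it leaves out the array of esophagus mouse 4, which is alone on its slide, and so gives the values found without that array. For *Sema6d* each alternative used the probe with 10 GT repeats, alone or in the mean of its probes. Its calls therefore do not bear on the part of the repeat, and its second probe, at background, gave a difference of -0.12. The processed signal scaled to the 75th percentile moved the median difference of all genes to 0.20 from 0.03, and under it *Plxna2* (0.93, limma adjusted p = 0.0872), *Sema4d* (0.94, 0.0802) and *Plxnb2* (-0.33, 0.663) were not called while *Plxnc1* was (-1.85, 0.0474). An offset of 50 ended the calls of *Sema3f* (0.85, 0.0586) and *Plxnb2* (-0.71, 0.0521). The cause of these changes was not tested.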
